A study of Mus musculus with 5 samples.

Results

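The peaks described here are those of γH2AX at the centromeric ends of the mouse autosomes. They were chosen by position alone, as every peak on chromosomes 1 to 19 that starts below 10 Mb in the authors' peak lists. The rule took 634 of the 11254 listed peaks, 196 from Rb+/+, 227 from RbΔL/+, 121 from RbΔL/ΔL and 90 from Rb-/-. The other 10086 autosomal peaks served as the background.

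The study mapped γH2AX by chromatin immunoprecipitation and sequencing in primary mouse embryonic fibroblasts, proliferating at passage 4, with 1 library for each of 4 genotypes and 1 input library whose genotype the labels do not give. Rb+/+ cells have 2 intact Rb alleles, which encode the retinoblastoma protein, and Rb-/- cells have none. RbΔL/+ and RbΔL/ΔL cells carry the ΔL allele on 1 or on both copies, which alters the pocket cleft through which the protein binds partners with an LXCXE motif. The same γH2AX antibody lot was used for the 4 genotypes, and the labels name no other allele or treatment and no number of embryos. The counts over repeats and unique genome totalled 13731924 in RbΔL/+, the shallowest library, and 16061083 to 17896985 in the other 4. With 1 library per genotype nothing between genotypes could be tested. Intervals below are exact 95% intervals, cover counting error only, and treat peaks as independent.

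γH2AX is the histone variant H2AX phosphorylated by the checkpoint kinases ATM, ATR and DNA-PK around DNA breaks and stalled replication forks. Mouse autosomes have their centromere at one tip. There, arrays of minor satellite lie at the centromere itself and arrays of major satellite form the pericentromeric heterochromatin, which replicates late and is compacted with the help of condensins. Genome assemblies leave most of these arrays out and number the chromosome from the gap that stands for them. The peaks studied thus lie in assembled sequence at the centromeric side, and whether that sequence holds satellite repeats was not tested.

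The lowest listed peak lay near 3 Mb on most autosomes. Over the 4 lists, the lowest peak of chromosome 9 started at 2999906 (mm9), and that of every other autosome except chromosome 14 lay between 3026029, on chromosome 2, and 3861937, on chromosome 13. On chromosome 14 it lay at 6032126. Measured from the lowest peak of each chromosome, the 19 ends held 125.9 Mb, or 5.24% of the autosomal length spanned by peaks. The last peaks inside the 10 Mb limit started at 9994894 on chromosome 1 in Rb+/+ (score 61.75), 9899252 on chromosome 3 in RbΔL/+ (66.39), 9953664 on chromosome 9 in RbΔL/ΔL (62.66) and 9991954 on chromosome 10 in Rb-/- (75.02). The first outside it started at 10024063 on chromosome 2 (64.96), 10003469 on chromosome 13 (52.8), 10040411 on chromosome 15 (55.53) and 10249401 on chromosome 18 (76.29), in the same order. The limit therefore cut through ordinary, low-scoring peaks.

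As counted here, from each chromosome's lowest peak, the ends were at most slightly richer in peaks than the rest of the same autosomes. In Rb+/+ the density was 1.56 peaks per Mb at the ends (1.35 to 1.79) and 1.4985 along the rest (1.45 to 1.55), a ratio of 1.04 (0.895 to 1.20). In RbΔL/+ it was 1.80 (1.58 to 2.05) against 1.52, a ratio of 1.19 (1.03 to 1.36). In RbΔL/ΔL it was 0.961 (0.797 to 1.15) against 0.770, a ratio of 1.25 (1.03 to 1.502). In Rb-/- it was 0.715 (0.575 to 0.879) against 0.639, a ratio of 1.12 (0.894 to 1.38). At this limit the intervals of both libraries with a ΔL allele lay above 1, while those of Rb+/+ and Rb-/- included 1. That split did not hold at other limits. With a limit of 5 Mb the ratio was 1.43 (1.11 to 1.81) in Rb+/+, 1.69 (1.34 to 2.10) in RbΔL/+ and 1.52 (1.03 to 2.17) in Rb-/-, all above 1, and the interval of RbΔL/ΔL included 1, at 1.41 (0.982 to 1.97). With a limit of 20 Mb the ratio was 0.929, 0.913 and 0.971 in Rb+/+, RbΔL/+ and RbΔL/ΔL and 1.03 in Rb-/-, and all 4 intervals included 1. At 10 Mb all 4 intervals overlap, and the difference between genotypes was not tested.

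The values also depended on how the length of the ends was counted. With the ends of all autosomes counted from the single lowest coordinate, 2999906, a choice made after the data were seen, the ratio became 1.12 (0.977 to 1.28) in RbΔL/+ and 1.18 (0.975 to 1.42) in RbΔL/ΔL. Without chromosome 9 the ratio of RbΔL/ΔL was 1.18 (0.965 to 1.44) and that of RbΔL/+ was 1.17 (1.02 to 1.35).

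**Figure D1:**
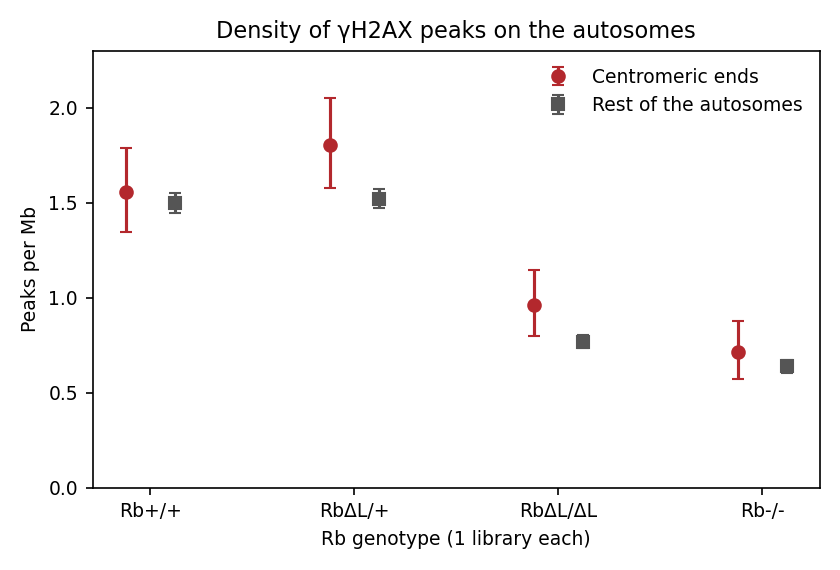
Peaks per Mb at the centromeric ends (circles) and along the rest of the autosomes (squares) in each library, with exact 95% Poisson intervals. The libraries differ in level, from 0.715 peaks per Mb at the ends in Rb-/- to 1.80 in RbΔL/+. In each the end lies a little above the rest, though not beyond counting error in Rb+/+ and Rb-/-.

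The satellites themselves were counted apart from the peaks. The major satellite GSAT_MM made up 2.48% of all counts in Rb+/+, 2.91% for RbΔL/+, 2.98% for RbΔL/ΔL and 2.89% for Rb-/-, against 3.73% in the input. The minor satellite SATMIN made up 0.0463%, 0.0511%, 0.0505% and 0.0595%, against 0.0526% in the input. Scaled to 1000000 counts of each library, there were 11.0 end peaks in Rb+/+, 16.5 for RbΔL/+, 7.53 for RbΔL/ΔL and 5.39 for Rb-/-, so the shallowest library had the most. A longer list gives a higher density everywhere, and the part of depth and background in the length of each list was not tested.

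Within the ends, the window from 3 to 4 Mb held the most peaks in RbΔL/+ and Rb-/-, and by a single peak in Rb+/+, but not in RbΔL/ΔL. Without chromosome 9 the lead in number narrowed in RbΔL/+, to 38 peaks there against 37 from 8 to 9 Mb. In Rb-/- it became a tie, with 14 there and 14 from 9 to 10 Mb. In Rb+/+ it was lost, with 23 there against 32 from 9 to 10 Mb. Between 3 and 4 Mb there were 34 peaks in Rb+/+, 47 for RbΔL/+, 19 for RbΔL/ΔL and 24 for Rb-/-. Spread over a full megabase on each of the 19 autosomes, this was 1.79, 2.47, 1.00 and 1.26 peaks per Mb. In the next megabase the values were 1.74, 1.79, 0.789 and 0.316. RbΔL/ΔL had more peaks from 5 to 6 and from 6 to 7 Mb, with 25 in each, and Rb+/+ had 33 peaks from 9 to 10 Mb. Chromosome 9 alone held 11, 9, 5 and 10 of the peaks between 3 and 4 Mb. Over the other 18 autosomes the same window had 1.28, 2.11, 0.778 and 0.778 peaks per Mb. Against the rest of the autosomes, chromosome 9 included and counted between peaks, this full-megabase value was lower in Rb+/+ (1.4985) and near level in RbΔL/ΔL (0.770). It was higher in Rb-/- (0.639). In RbΔL/+ (1.52) it was higher by the widest margin, with 8 peaks on chromosome 11 and 4 each on chromosomes 8 and 12. A full megabase includes length below the lowest listed peaks, which lowers these values by construction. Counted instead from each chromosome's lowest peak, the window with chromosome 9 had 2.44, 3.37, 1.36 and 1.72 peaks per Mb, all above the rest. Without chromosome 9 that count was not made, so the direction in Rb+/+ and RbΔL/ΔL is given for the full megabase only. The window that followed the ends, from 10 to 20 Mb, was below the average of the rest in all 4 libraries, at 1.31, 1.16, 0.626 and 0.626 peaks per Mb.

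Chromosomes differed widely at their ends, on small counts. Summed over the 4 lists, the end of chromosome 9 had 9.0 peaks per Mb against 5.24 along its rest, followed by chromosome 11 with 7.32 against 4.70 and chromosome 3 with 6.42 against 4.44. The end of chromosome 14 had 1.76 against 3.88 and that of chromosome 7 had 2.79 against 4.04. On chromosomes 3, 6 and 9 the end was denser than the rest in each of the 4 libraries, and on chromosomes 5, 7 and 14 in none. The end was denser on 9 of 19 autosomes in Rb+/+, 11 for RbΔL/+, 12 for RbΔL/ΔL and 8 for Rb-/-. Across the 19 autosomes, end and rest density had Spearman's rho of 0.475, 0.463, 0.50 and 0.204 in the same order, a description of points that share a library.

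By library, chromosome 9 had the densest end in Rb+/+ (19 peaks, 2.71 per Mb, 1.63 to 4.24), RbΔL/ΔL (14 peaks, 2.00, 1.09 to 3.36) and Rb-/- (13 peaks, 1.86, 0.989 to 3.18). In RbΔL/+ the densest end was that of chromosome 11 (23 peaks, 3.30, 2.09 to 4.95), where the rest of the chromosome had 1.76 per Mb. Chromosome 11 had 14 end peaks in Rb+/+ and 11 in RbΔL/ΔL, at 2.01 and 1.58 per Mb, but 3 in Rb-/- (0.430, 0.0888 to 1.26). Chromosome 14 had the sparsest end in Rb+/+, RbΔL/+ and RbΔL/ΔL, with 2, 2 and 1 peaks, or 0.504, 0.504 and 0.252 per Mb. In Rb-/- the sparsest was chromosome 7, with 0 peaks. Its interval reached up to 0.543 per Mb, which includes the 0.498 per Mb found along the rest of that chromosome.

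**Figure D2:**
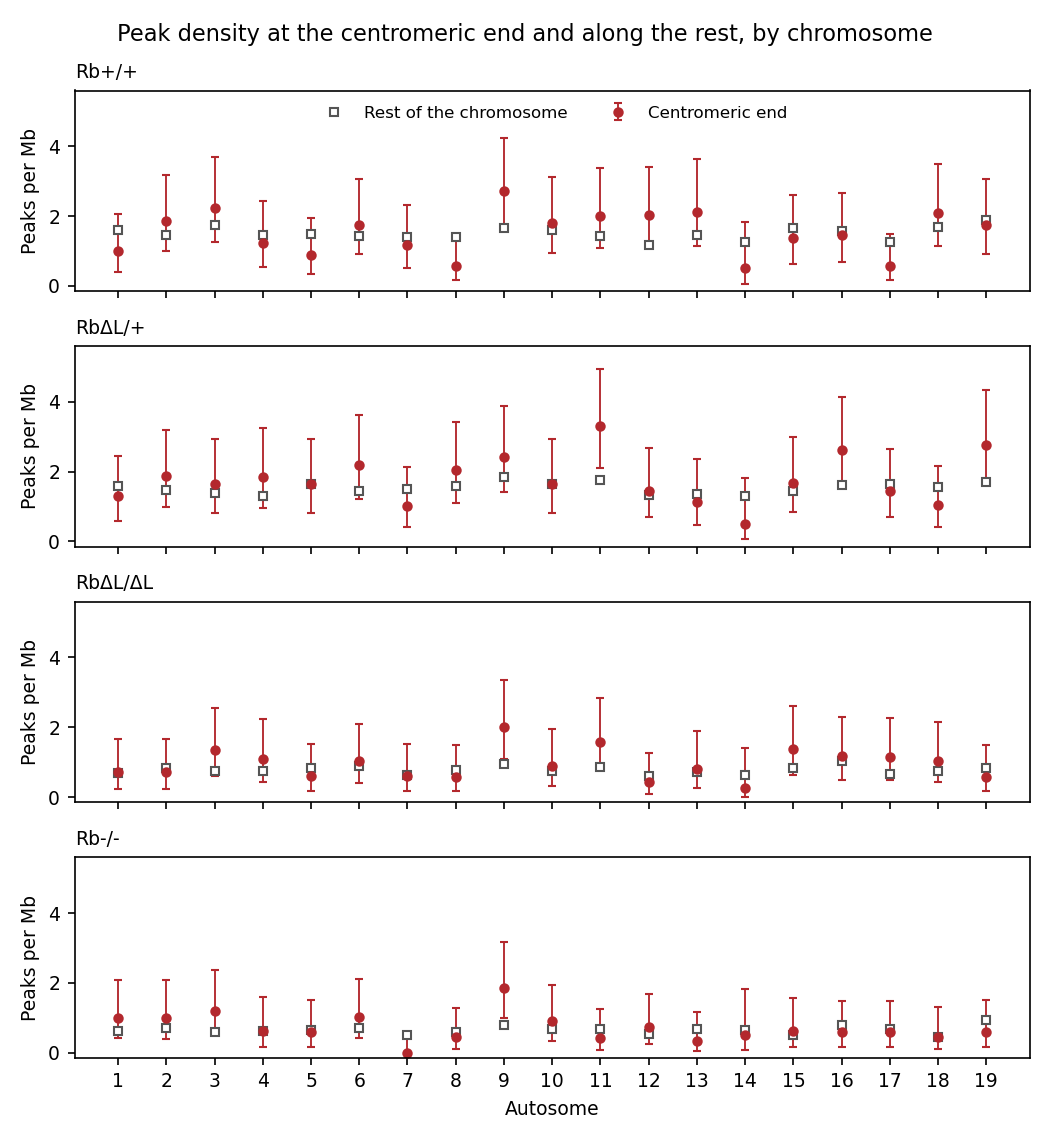
Peaks per Mb at the centromeric end of each autosome (filled circles, with exact 95% Poisson intervals) and along the rest of the same chromosome (open squares), one panel per library. The end of chromosome 9 lies above its rest in all 4 panels, and the end of chromosome 11 reaches 3.30 in RbΔL/+.

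In width and score a typical peak of the ends was like a typical autosomal peak of its list. Median widths were 387.5 bp at the ends and 391 bp along the rest in Rb+/+, 418 and 407 bp for RbΔL/+, 321 and 321 bp for RbΔL/ΔL, and 365 and 336 bp for Rb-/-. The score, which is the authors' own for each peak and read here as MACS writes it, larger for a smaller p-value, moves with a library's depth and background. Scores and ranks of different lists stand side by side below as descriptions, and no difference between genotypes is read from them. Median scores were 72.03 at the ends and 72.03 along the rest in Rb+/+, 61.84 and 63.49 for RbΔL/+, 59.47 and 59.57 for RbΔL/ΔL, and 91.225 and 94.12 for Rb-/-. The 95% intervals of the medians of end and rest overlapped in every library, for width and for score.

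In Rb+/+, 41 of the 196 end peaks (20.9%) scored at least 100, where 21.8% of the rest did. In RbΔL/ΔL it was 1 of 121 (0.826%) against 1.03%, and in Rb-/- 40 of 90 (44.4%) against 46.6%. RbΔL/+ had 15 of 227 (6.61%, 3.75 to 10.7) against 4.10%. These shares lay near the background, and that of RbΔL/+ came to 3.69% once the chromosome 9 stretch described below was set aside. At the very top of the list the ends had a larger part in Rb+/+, RbΔL/+ and Rb-/-, but not in RbΔL/ΔL. Of the peaks ranked 20 or better, 6 lay at the ends in Rb+/+, 6 for RbΔL/+, 1 for RbΔL/ΔL and 8 for Rb-/-, although end peaks made up 5.43%, 6.15%, 6.46% and 5.82% of the autosomal peaks. The rest of the autosomes had 13, 13, 19 and 19 peaks of those ranks, ties included. The stretch on chromosome 9 held 5, 5, 1 and 6 of them.

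End peaks overlapped those of another genotype more often than peaks along the rest did. By at least 1 bp, 15 end peaks of Rb+/+ overlapped a peak of another list (7.65%, 4.35 to 12.3), where the rest of the autosomes gave 0.762%. In RbΔL/+ it was 15 (6.61%, 3.75 to 10.7) against 1.10%, and in RbΔL/ΔL 9 (7.44%, 3.46 to 13.7) against 1.48%. In Rb-/- it was 11 (12.2%, 6.26 to 20.8) against 1.24%. In each library the interval at the ends lay above the background share. Merged over the lists, the ends formed 601 regions, of which 17 (2.83%, 1.66 to 4.49) held 2 or more genotypes, against 43 of 10021 (0.429%, 0.311 to 0.578) along the rest. All 4 genotypes met in 6 regions at the ends and in 6 along the much longer rest. By pairs, 13 end peaks of Rb+/+ overlapped one of RbΔL/+ (6.63% of the Rb+/+ end peaks, 5.73% of the RbΔL/+ ones) and 11 overlapped one of Rb-/- (5.61% and 12.2%). For RbΔL/ΔL, 6 Rb+/+ peaks matched 7 of its own (3.06% and 5.79%). RbΔL/+ and RbΔL/ΔL matched with 8 and 9 peaks (3.52% and 7.44%), and RbΔL/+ and Rb-/- with 9 each (3.96% and 10%). RbΔL/ΔL and Rb-/- matched with 7 and 6 (5.79% and 6.67%).

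Most of the shared end peaks lay in one short stretch. The regions of 2 or more genotypes on chromosome 9 all lay between 2999906 and 3036595, a span of 36690 bp at the lowest listed coordinates of the chromosome. The stretch was delimited by these shared regions, so setting it aside lowers the shared share by construction, while the background keeps its own shared sites. There were 12 peaks of Rb+/+, 10 of RbΔL/+, 6 of RbΔL/ΔL and 11 of Rb-/-, of which 10, 9, 6 and 9 overlapped another genotype. The peaks covered 27.0%, 23.6%, 10.9% and 31.1% of the stretch. They made up 12.2% of the Rb-/- end peaks and 28.3% of the bases under them, and 4.41% to 6.12% of the end peaks of the other libraries. The rest of the chromosome 9 end held 7, 7, 8 and 2 peaks. Outside the stretch, 5 end peaks of Rb+/+ were shared (2.72%, 0.888 to 6.23), 6 of RbΔL/+ (2.76%, 1.02 to 5.92), 3 of RbΔL/ΔL (2.61%, 0.541 to 7.43) and 2 of Rb-/- (2.53%, 0.308 to 8.85). For that reason these shares are not read against the background.

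The strongest peak at the autosomal ends lay in this stretch in every library. The region at 3023060 to 3024847 had a score of 1266.36 (rank 5) in Rb+/+, 796.37 (rank 4) in RbΔL/+ and 1316.29 (rank 4) in Rb-/-, as a single peak of 1777, 1691 and 1744 bp. In RbΔL/ΔL the same region held 2 separate peaks of 274 and 326 bp, with scores of 95.02 and 144.92, ranked 26 and 12. Only 600 of its 1788 bp were covered in all 4 libraries. RbΔL/ΔL thus had narrow peaks where the other 3 libraries had a continuous one.

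Another 4 regions of the stretch held peaks of all 4 genotypes. The region at 3001942 to 3002997 ranked 8 in Rb+/+ (score 492.31), 9 in RbΔL/+ (432.84), 7 in Rb-/- (498.27) and 51 in RbΔL/ΔL (85.25). The one at 2999906 to 3001810, the first of the chromosome, had scores of 270.17, 242.72 and 446.45 in Rb+/+, RbΔL/+ and Rb-/-, ranked 12, 14 and 8, and 53.66 in RbΔL/ΔL, ranked 1827 of 1976. Its width hardly differed, with 1628 of 1905 bp covered in all 4 libraries. At 3006540 to 3007167 the scores were 213.8, 264.22, 323.88 and 81.64 in the order Rb+/+, RbΔL/+, Rb-/- and RbΔL/ΔL, and at 3024923 to 3026219 they were 289.19, 170.73, 240.68 and 67.15. Because the lists differ in length, from 1632 to 3857 peaks, and in score level, these scores and ranks cannot be compared between libraries. Whether the libraries differ there was not tested.

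A further 3 regions of the stretch had peaks in Rb+/+, RbΔL/+ and Rb-/- and none in RbΔL/ΔL. They lay at 3021944 to 3022967 (scores 144.5, 124.18 and 272.25), 3029373 to 3030370 (82.48, 135.78 and 77.81) and 3035584 to 3036595 (116.08, 97.92 and 187.65). At 3003361 to 3003677 only Rb+/+ (53.67) and RbΔL/+ (53.1) had a peak, and at 3020287 to 3020683 only Rb+/+ (75.71) and Rb-/- (88.61). A peak missing from a list shows only that it did not pass the authors' calling. Input reads over the stretch were not examined, so γH2AX there cannot be told apart from reads that pile up in any library. The satellite content of the stretch was not tested.

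**Figure D3:**
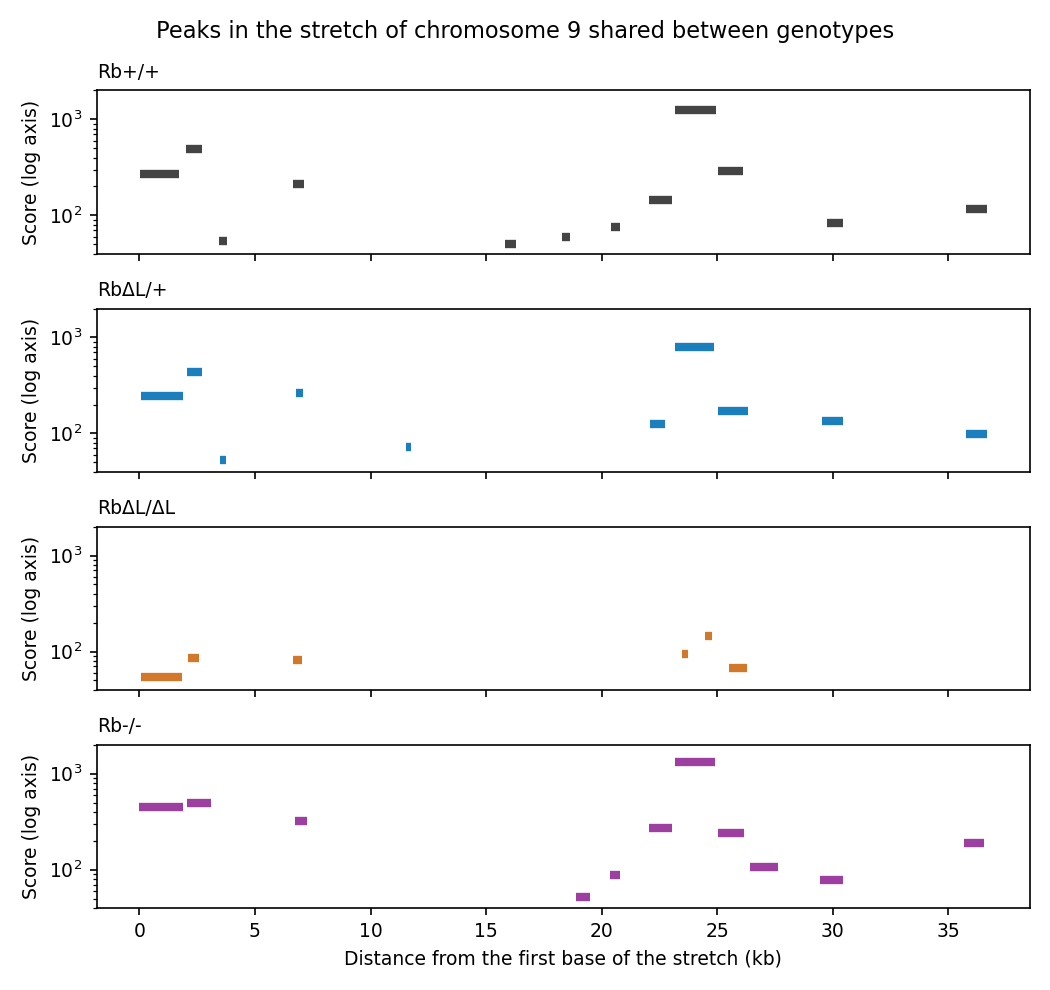
Peaks in the 36690 bp stretch at the start of chromosome 9, one panel per library, each drawn as a line from its first to its last base at the height of its score (log axis). Rb+/+, RbΔL/+ and Rb-/- show the same main peaks, and RbΔL/ΔL shows 6 peaks. Scores are not on one scale between panels.

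The sixth region found in all 4 genotypes was a single site on chromosome 12, at 3109703 to 3110262, the first listed peak of that chromosome. It was narrow, 418 to 506 bp in the 4 libraries, and 373 of its 560 bp were common to all. Its score was 307.57 (rank 9) in Rb+/+, 222.55 (rank 16) in RbΔL/+, 307.58 (rank 10) in Rb-/- and 56.39 (rank 1391) in RbΔL/ΔL. The nearest peak of the same list lay 2415178 bp away in Rb+/+, 210450 bp for RbΔL/+, 2676773 bp for RbΔL/ΔL and 3336079 bp for Rb-/-. Unlike the peaks on chromosome 9, it was thus a lone peak in each list.

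Outside chromosomes 9 and 12, shared regions held 2 genotypes each. The pair was Rb+/+ and RbΔL/+ on chromosome 2 at 5300187 to 5300522 (scores 52.31 and 58.31), on chromosome 3 at 5860315 to 5860911 (145.48 and 158.25) and on chromosome 6 at 3151335 to 3151673 (69.84 and 57.33). It was Rb+/+ and Rb-/- on chromosome 3 at 6585604 to 6585840 (95.53 and 170.55). The remaining 2 regions paired the libraries with a ΔL allele, and both were wide. On chromosome 11 at 3031298 to 3034265, RbΔL/+ had a peak of 2879 bp (score 139.95, rank 36) and RbΔL/ΔL one of 2532 bp (55.4, rank 1585). On chromosome 17 at 3081462 to 3082526 they had peaks of 1065 bp (68.83) and 990 bp (66.58). Each was the lowest listed peak of its chromosome, and neither Rb+/+ nor Rb-/- had a peak there, a difference that was not tested.

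The highest-scoring end peaks were nearly all among these shared regions. The top 3 were chromosome 9 at 3023071 and 3001942 and chromosome 12 at 3109795 in Rb+/+, and chromosome 9 at 3023090, 3001977 and 3006688 in RbΔL/+. In Rb-/- they were chromosome 9 at 3023060, 3001944 and 2999906. RbΔL/ΔL was the exception, with chromosome 9 at 3024358 and 3023365 followed by a peak of its own on chromosome 6 at 3308382 to 3308554, 173 bp wide with a score of 91.54. The highest unshared end peaks of the other libraries scored 209.32 in Rb+/+, 118.06 in RbΔL/+ and 235.35 in Rb-/-.

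Shared end peaks differed in form from the many that were found once. Their median width was 597 bp in Rb+/+ against 384 bp for unshared end peaks, 655 against 415 bp in RbΔL/+, 480 against 320 bp in RbΔL/ΔL and 997 against 347 bp in Rb-/-. Median scores were 144.5 against 71.28, 139.95 against 61.33, 67.15 against 59.195 and 272.25 against 82.8. Wider peaks can overlap others more readily, and the part of width in the sharing was not tested. Among unshared end peaks, score fell as width rose, with Spearman's rho of -0.83 in Rb+/+ (181 peaks), -0.88 in Rb-/- (79), -0.46 for RbΔL/+ (212) and -0.36 for RbΔL/ΔL (112). Of the 32 unshared Rb+/+ end peaks with a score of at least 100, 30 were at most 300 bp wide, as were 24 of 31 in Rb-/-. Many peaks also carried the same score, 72.03 in 27 of the 196 end peaks of Rb+/+ and 82.8 in 8 of the 90 of Rb-/-. Among shared end peaks, most of them neighbours in the chromosome 9 stretch, rho was 0.67 in Rb+/+, 0.40 in RbΔL/+ and 0.60 in Rb-/-, on 11 to 15 peaks each. In RbΔL/ΔL it was -0.90 on 9. The same fall of score with width held along the rest of the autosomes, with rho from -0.83 in Rb-/- to -0.16 in RbΔL/ΔL.

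**Figure D4:**
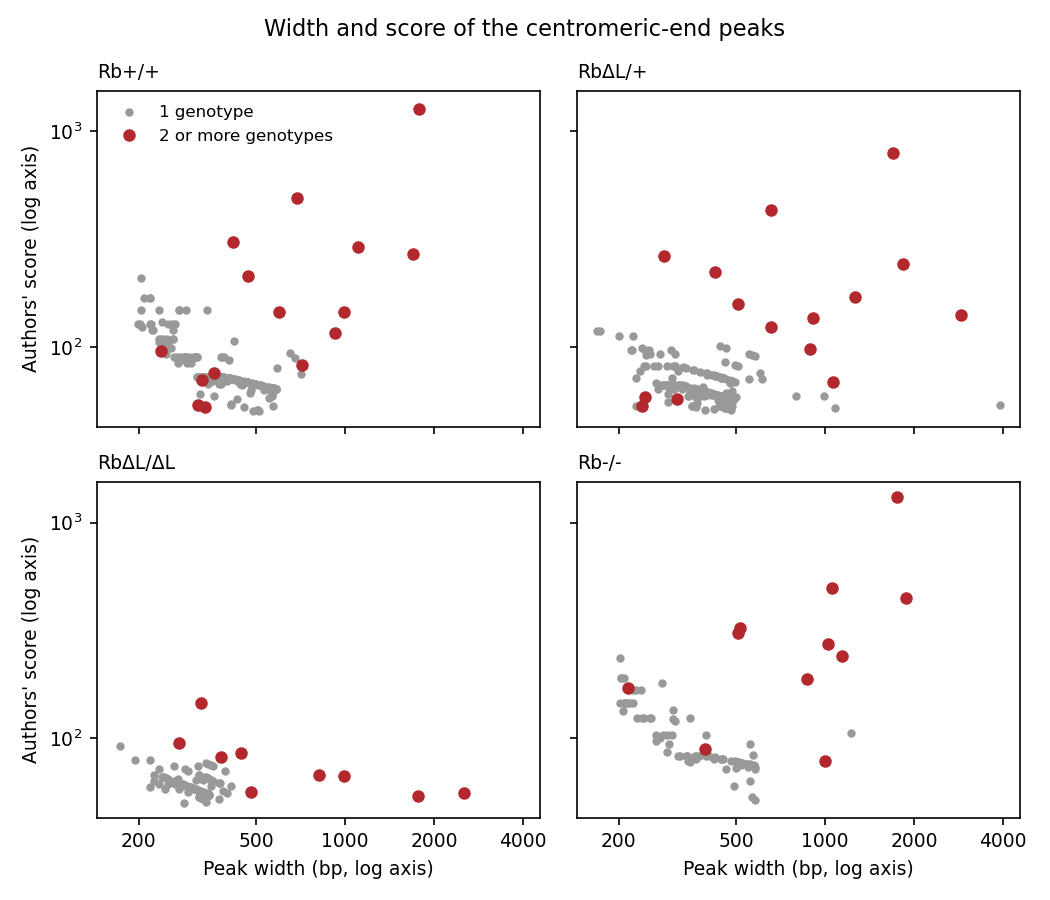
Width against the authors' score of every centromeric-end peak (both axes log), one panel per library, with peaks found in 1 genotype in grey and those that overlap another genotype in red. Grey peaks fall along bands in which narrower peaks score higher, and the highest peaks of each panel are red, up to a score of 1316.29 in Rb-/-.

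End peaks also lay close together more often than others. In Rb+/+, 11 of 196 (5.61%) were within 5 kb of another peak of the list, against 1.88% along the rest. In RbΔL/+ it was 23 of 227 (10.1%) against 1.82%, in RbΔL/ΔL 8 of 121 (6.61%) against 1.37%, and in Rb-/- 12 of 90 (13.3%) against 0.755%. The chromosome 9 stretch held 11, 9, 6 and 10 of them. Outside it, in counts lowered by how the stretch was chosen, 0 of 184 were left in Rb+/+, 2 of 79 in Rb-/- and 2 of 115 for RbΔL/ΔL, but 14 of 217 (6.45%) in RbΔL/+.

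Those 14 peaks of RbΔL/+ formed groups on chromosomes 8, 11, 15 and 19. The largest was a run of 6 peaks on chromosome 19 between 5829819 and 5841374, a span of 11556 bp of which 2707 bp were covered. Its peaks had scores of 81.46, 58.28, 75.3, 98.69, 82.26 and 61.39 along the chromosome, and none overlapped a peak of another genotype. On chromosome 11, 2 pairs lay at 3031298 to 3037986 and 3049488 to 3053250. A further peak at 3070085 to 3073981 was the widest of all end peaks, with 3897 bp but a score of 53.68 (rank 3571 of 3789). Of the 18 end peaks wider than 1000 bp, 13 lay in the chromosome 9 stretch. The other 5 lay on chromosomes 11 and 17, with 4 from RbΔL/+ and 1 from RbΔL/ΔL. Peaks this wide made up 1.53%, 3.08%, 1.65% and 6.67% of the end peaks in the order Rb+/+, RbΔL/+, RbΔL/ΔL and Rb-/-. Along the rest the shares were 0.0879%, 0.0866%, 0.399% and 0.343%, on 3, 3, 7 and 5 peaks, and no difference between genotypes was tested. These positions on chromosomes 11 and 19 were singled out after their values were seen, and gene annotation of this build was not used here.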

How the data were processed

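γH2AX ChIP-seq was done in 4 genotypes of primary mouse embryonic fibroblasts, with 1 library each and 1 input library, by 2x100 paired-end sequencing per the labels. The submitters' processing notes name Bowtie 1.0, MACS 1.4.2 and the mm9 build, with no role given. The deposited peak lists hold, for each peak, a position and a score of the authors, which no header explains and which is read here as MACS writes it. The deposited repeat table holds counts per repeat family and for the unique genome, from which shares were computed. How MACS used the input, and whether replicates were pooled, is not given in the sources used here.

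Each list was taken as that of the sample it was deposited with. The sample number in its name is 1 higher than that in the sample's label, so every peak result rests on the deposit. Starts are given 1-based. Chromosome lengths ran from the lowest to the highest peak of the 4 lists. Overlap meant at least 1 bp. Density intervals are exact Poisson, ratio intervals exact conditional binomial, shares Clopper-Pearson, and medians from binomial order statistics, all at 95%. Named are all end regions with 2 or more genotypes, the 3 highest-scoring end peaks and the densest and sparsest chromosome end of each library, and the peaks next to the 10 Mb limit. Members and lists were chosen with earlier results of these data known. Alternatives changed the limit, start of length, score minimum, overlap, merging, list size and chromosome 9. Python 3.11.15, pandas 2.3.3, numpy 2.4.6 and scipy 1.17.1 were used, and the interval and overlap code was tested on simulated data. Genes and sequences of the regions were not used here.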

Additional observations from a re-analysis of the deposited data

Results flagged for a closer look

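The first 10 Mb of the sex chromosomes lie outside the comparisons above and also held peaks, listed here because their number exceeded the 3 that a count of 0 allows. On chromosome X there were 8 peaks in Rb+/+, of 248 on that chromosome, and 4 in Rb-/-, of 86. RbΔL/+ had 1 there, of 80, and RbΔL/ΔL 3, of 102. On chromosome Y there were 18 in RbΔL/+, which were all of its peaks on that chromosome, whereas the other 3 libraries had 0. The sex of the embryos was not among the sample labels used here, and its part in these counts was not tested.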

How the results depend on the processing

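Of 101 alternative values for 17 results, 57 stayed within the interval of the reported value or, for region counts, within 1.5 times of it. A further 40 moved beyond that, and 4 ratios whose interval had lain above 1 fell below 1. Staying within the interval did not keep the Rb+/+ ratio above 1, which was 0.929 at 20 Mb, 0.996 at a score of at least 100, 0.999 without chromosome 9 and 0.983 from one common start. With a limit of 5 Mb the density ratio was 1.43 in Rb+/+, 1.69 in RbΔL/+ and 1.52 in Rb-/-, with intervals above 1, and 1.41 (0.982 to 1.97) in RbΔL/ΔL. It was 1.42 in RbΔL/+ when length was also counted from one common start, chosen after seeing the data. On that count Rb+/+, RbΔL/ΔL and Rb-/- had ratios of 1.20, 1.19 and 1.28. Their intervals included 1, with lower bounds of 0.929, 0.825 and 0.865. At the 5 Mb limit, shares of shared peaks were 17.6%, 15.9%, 25.7% and 32.3% in the order Rb+/+, RbΔL/+, RbΔL/ΔL and Rb-/-. Median widths were 508 bp in Rb-/-, 445 bp for RbΔL/+ and 330 bp for RbΔL/ΔL, and median scores 73.87 in Rb+/+ and 123.76 in Rb-/-. With 20 Mb the ratio reversed to 0.913 in RbΔL/+ and 0.971 in RbΔL/ΔL, and sharing was 3.60% in Rb+/+, 3.57% in RbΔL/+ and 5.26% in Rb-/-. Counted from coordinate 0, the ratios were 0.688, 0.786, 0.827 and 0.741, reversed in both ΔL libraries. That count adds length below the lowest listed peaks, so every ratio falls by construction, whatever the peaks. The reported count leaves out any length below each chromosome's lowest peak, which raises every ratio by construction.

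At a score of at least 100 the ratio was 1.91 in RbΔL/+ and 1.01 in RbΔL/ΔL, the latter on 1 peak. Sharing was 22.0% for Rb+/+, 53.3% for RbΔL/+ and 100% for RbΔL/ΔL, median width 252 bp in Rb+/+, 506 bp in RbΔL/+ and 255 bp in Rb-/-, and median score 127.85, 139.95, 144.92 and 145.16. With equal numbers of top peaks, 1632 per list, median widths were 287 bp in Rb+/+ and 377 bp in RbΔL/+, and median scores 101.53 and 77.51. Without chromosome 9, sharing was 2.82%, 2.86%, 2.80% and 2.60%. Regions of all 4 genotypes, 6 in the report, came to 1 with the score minimum and 1 without chromosome 9. Apart from the changes that follow from the alternative's own construction, the cause was not tested. No paired analysis was possible because each genotype has 1 library. The small number of peaks limits each chromosome's value.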
